A study of Homo sapiens with 9 samples.

Results

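The immunoproteasome subunits and proteasome activators are 7 genes of the 58174 in the deposited expression table, taken by their gene names: the catalytic subunits PSMB8, PSMB9 and PSMB10 and the activators PSME1, PSME2, PSME3 and PSME4. RNA-seq levels were available from 9 libraries of 3 lines labelled HepG2, a line derived from a human liver tumour. Each of the 3 groups held 3 libraries. The control group was labelled wild type and, in the protocol, carried the pLVX lentiviral vector. The second group overexpressed NFE2L1, a transcription factor anchored in the endoplasmic reticulum that activates proteasome genes once processed. The third group overexpressed NFE2L1DC, spelled in the protocol with a delta, the convention for a protein lacking its C-terminal end. The labels do not say how much is deleted, which promoter drives the transgene, or whether a line is a clone or a pool. All lines were grown in high-glucose DMEM with fetal bovine serum. Nothing in the labels states that replicates came from separate cultures, and p-values therefore reflect the spread between libraries alone, which may be technical.

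The proteasome degrades ubiquitin-tagged proteins in a barrel-shaped core whose inner rings carry 3 kinds of active site, made in most cells by PSMB5, PSMB6 and PSMB7. Interferons and other inflammatory signals induce PSMB8, PSMB9 and PSMB10, which take the places of PSMB5, PSMB6 and PSMB7 in newly assembled cores and shift cleavage towards peptides that fit class I HLA molecules. Activators cap the core: PSME1 and PSME2 together form the interferon-inducible ring, PSME3 forms a nuclear ring of its own, and PSME4 encodes a large single-chain activator linked to histone turnover.

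Levels are TPM, a length-normalised abundance scaled to a fixed total in each library, and read depth behind each value is unknown. Tests were made with limma on log2(TPM + 1) over the 14118 genes with 1 TPM or more in 3 or more of the 9 libraries, with Benjamini-Hochberg adjustment over all of them and a threshold of 0.05. All 7 members entered this test, and all 7 were above 3 TPM in each of the 9 libraries. Log2 fold changes carry standard errors from the fit, and folds are ratios of mean TPM. The NFE2L1 gene itself measured 104, 81.7 and 64.0 TPM in the control libraries, 207, 181 and 354 TPM in the NFE2L1 libraries and 445, 427 and 472 TPM in the NFE2L1DC libraries. Of 10 hepatoma markers, 5 (ALB, APOB, TTR, SERPINA1 and FGB) were listed at 0 in all 9 libraries and none reached 1 TPM, while GAPDH measured 10379 to 14547 TPM, so the libraries do not show the defining markers of the labelled line. Control replicate 3 stood apart from the other controls. On the first principal component, which carried 41.9% of the variance, it lay at 4.96 against -43.8 for each of the other 2 controls. The NFE2L1 libraries lay at 19.7 to 23.0 and the NFE2L1DC libraries at 19.2, -1.24 and 0.64. On this component control replicate 3 was thus nearer to the overexpressing libraries than to the other controls. On the second component, with 13.35% of the variance, it lay at 37.9, apart from all other libraries at -10.9 to 3.64. Member results are also given without control replicate 3 where they changed.

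The promoter sequences are shown because 4 of the 7 members share the same 10 bases close to their start. RefSeq windows on GRCh38.p14, from 250 bases before each gene start to 50 after it, were searched on both strands for GAAANNGAAA, the core of the interferon-stimulated response element. Stretches of 80 to 86 bases around the matches read as follows on the strand of the gene, with the match in capitals.
PSMB8, chr6:32844032-32844111, minus strand: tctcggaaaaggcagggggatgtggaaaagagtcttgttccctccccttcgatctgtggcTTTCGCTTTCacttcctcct
PSMB10, chr16:67936852-67936931, minus strand: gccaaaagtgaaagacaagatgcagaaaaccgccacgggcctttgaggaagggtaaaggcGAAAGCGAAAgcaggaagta
PSME1, chr14:24136139-24136218, plus strand: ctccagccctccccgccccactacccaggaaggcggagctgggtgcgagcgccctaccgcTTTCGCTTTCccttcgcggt
PSME2, chr14:24146619-24146698, minus strand: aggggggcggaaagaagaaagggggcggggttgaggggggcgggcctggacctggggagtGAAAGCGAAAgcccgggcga
TAP1, upstream of both TAP1 and PSMB9, chr6:32853813-32853898, minus strand: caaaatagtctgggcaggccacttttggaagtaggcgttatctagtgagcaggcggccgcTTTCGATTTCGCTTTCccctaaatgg

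Each of the first 4 stretches held the letters GAAAGCGAAA, read on the plus or minus strand of the gene. With the gene start as position 1, the first base of the match lay at position -4 in PSMB8, -21 in PSMB10, 6 in PSME1 and -28 in PSME2. The RefSeq window of PSMB9 held no match. PSMB9 and TAP1, which encodes a subunit of the peptide transporter, are transcribed away from each other from starts 488 bases apart. The TAP1 window held GAAATCGAAA and GAAAGCGAAA, which overlap each other, and the ends of these matches nearest PSMB9 lay 354 and 360 bases from its start. No match was found in the windows of PSME3, PSME4 or PSMB5, which says only that these letters are not in those windows. PSMB6 and PSMB7 were not matched to a window. Of all 35116 RefSeq windows, 3.57% held the general form and 0.0997%, or 35 windows, held the exact letters GAAAGCGAAA, which were picked out after the members' windows had been read.

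Matches to the general form of the gamma-activated sequence, TTCNNNGAA, an element of interferon-gamma responses, were found in 7.66% of all windows. Among the members they lay in PSMB8 at position -65 and in PSME3 at position -230. Outside the members, the constitutive PSMB5 held matches at -158 and -15, and TAP1 held 1 at -189 in the window of its other start. The antioxidant response element bound by NFE2L1 and its relatives was searched in a loose form, TGANNNNGC. Every base between TGA and GC was left free, so a match need not be the element itself. This form is short and was present in 41.8% of all windows. Among the members it matched in the windows of PSMB8, PSMB9, PSME1, PSME2 and PSME4 and not in those of PSMB10 or PSME3. A match is a description of letters, and binding was not measured in these libraries.

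**Figure D1:**
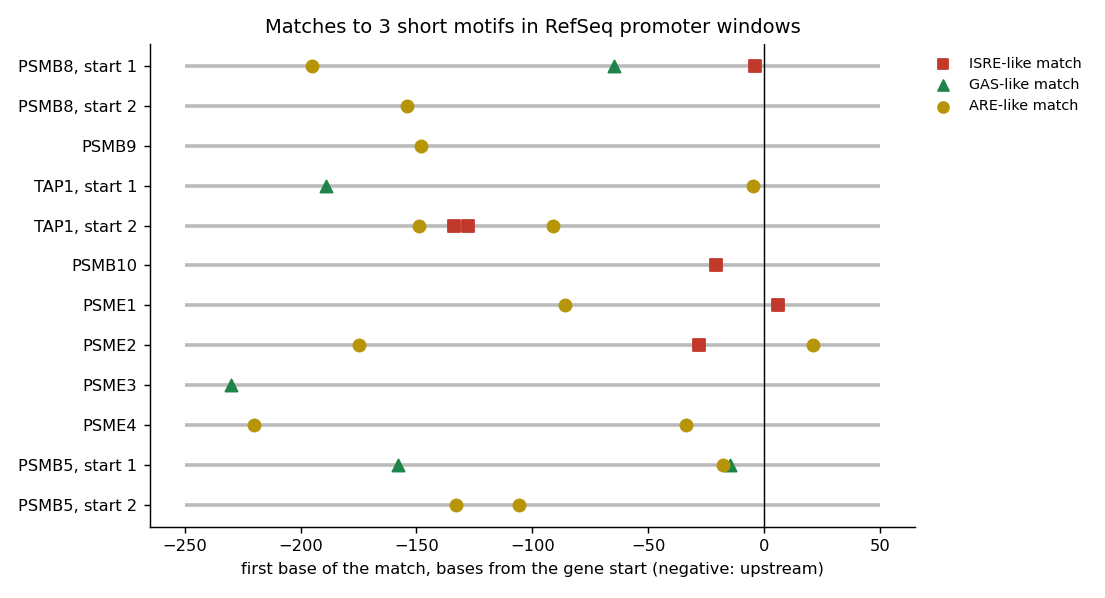
Positions of matches to 3 short motifs in RefSeq promoter windows of the members, TAP1 and PSMB5, as bases from the gene start (x axis) for each window (y axis); PSMB8, TAP1 and PSMB5 have 2 starts each. Red squares, the interferon-response form, appear in 1 window each of PSMB8, TAP1, PSMB10, PSME1 and PSME2.

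In the NFE2L1 line, PSMB9, PSMB8, PSME2 and PSME3 were higher than in control cells by the limma test, while PSMB10, PSME1 and PSME4 did not pass it. These 4 of 7 members stand beside a background of 7.83% of all genes tested that rose in this comparison and 2.57% that fell. The median log2 fold change of the 7 members was 0.45, against 0.17 over all genes tested. Without control replicate 3 the count was 5 of 7, with PSME4 added, and against control replicate 3 alone it was 2, PSMB8 and PSMB9. With 1 control library the spread comes from the other groups only, and that control is assumed to vary like them. Scaling the libraries by the median of ratios moved the median of all genes from 0.17 to 0.02 and left PSMB9 as the 1 member past the threshold. The 3 NFE2L1 libraries lay above the 3 control libraries for the same 4 members, against 22.6% of all genes tested, and no member lay wholly below, against 9.53%. In the NFE2L1DC line none of the 7 members passed the threshold by limma in either direction, and 2 of them, PSMB9 and PSME1, had an unadjusted p under 0.05, as did 21.7% of all genes tested. Of all genes tested, 2.06% rose and 1.54% fell in the NFE2L1DC line, and the members' median log2 fold change was 0.12, beside 0.12 over all genes. Without control replicate 3, PSME1 passed as lower and PSME4 as higher in this line.

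PSMB9 encodes the immunoproteasome subunit that replaces PSMB6, and lies on chromosome 6 in the class II HLA region. It measured 10.4, 9.49 and 8.21 TPM in the control libraries, 21.9, 26.8 and 23.6 TPM in the NFE2L1 libraries and 11.7, 13.4 and 13.3 TPM in the NFE2L1DC libraries. The 3 groups did not overlap, with control lowest, NFE2L1DC next and NFE2L1 highest. Against control, PSMB9 rose 2.57-fold in the NFE2L1 line, a log2 fold change of 1.27 ± 0.13 (SE; 95% interval 0.98 to 1.57; limma adjusted p = 0.000543). In the NFE2L1DC line its log2 fold change was 0.41 ± 0.13 (SE; limma adjusted p = 0.114), and the NFE2L1DC libraries lay wholly above control, as did 13.7% of all genes tested. PSMB9 was also higher in the NFE2L1 line than in the NFE2L1DC line, by 0.86 ± 0.13 on the log2 scale (limma adjusted p = 0.0171). It was the 1 member of 7 to pass in that comparison, in which 0.715% of all genes were higher and 0.0779% lower in NFE2L1. Without any one of the 6 NFE2L1 or NFE2L1DC libraries this last call was lost, with limma adjusted p-values of 0.0536 to 0.103 and log2 differences of 0.78 to 0.92, and median-of-ratios scaling also ended it (0.107).

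PSMB8, the subunit that replaces PSMB5, is the neighbour of PSMB9 on the opposite strand. It measured 17.1, 13.2 and 12.6 TPM in control, 22.4, 29.4 and 24.8 TPM in NFE2L1 and 14.9, 17.5 and 14.9 TPM in NFE2L1DC. The NFE2L1 libraries lay above all others, and the NFE2L1DC libraries overlapped the controls. The rise in the NFE2L1 line was 1.79-fold, a log2 fold change of 0.80 ± 0.15 (SE; 95% interval 0.46 to 1.14; limma adjusted p = 0.0125), and it missed the threshold without control replicate 2 (limma adjusted p = 0.0552) or NFE2L1 replicate 2 (0.0548), and under median-of-ratios scaling (0.0666). In NFE2L1DC the log2 fold change was 0.14 ± 0.15 (limma adjusted p = 0.599). The difference between the 2 overexpressing lines was 0.66 ± 0.15 (95% interval 0.32 to 1.00; limma adjusted p = 0.14), which did not pass.

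PSMB10, the subunit that replaces PSMB7, lies apart from the other 2 on chromosome 16. It measured 37.7, 45.7 and 37.1 TPM in control, 35.9, 43.1 and 43.3 TPM in NFE2L1 and 39.2, 41.3 and 40.5 TPM in NFE2L1DC. The groups overlapped throughout. Its log2 fold change was 0.02 ± 0.11 in the NFE2L1 line, with a 95% interval of -0.23 to 0.27 that lies below the whole interval of PSMB8 and of PSMB9. The limma adjusted p for PSMB10 was 0.908 in NFE2L1 and 0.959 in NFE2L1DC. Its sign in NFE2L1 turned under median-of-ratios scaling, to -0.15. PSMB10 had the most GC-rich transcript of the members, at 60.1%, and a log2 fold change of 0.25 after correction for GC content and length (limma adjusted p = 0.173). The interferon-response letters at its start, shown above, were the same 10 bases as in PSMB8.

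**Figure D2:**
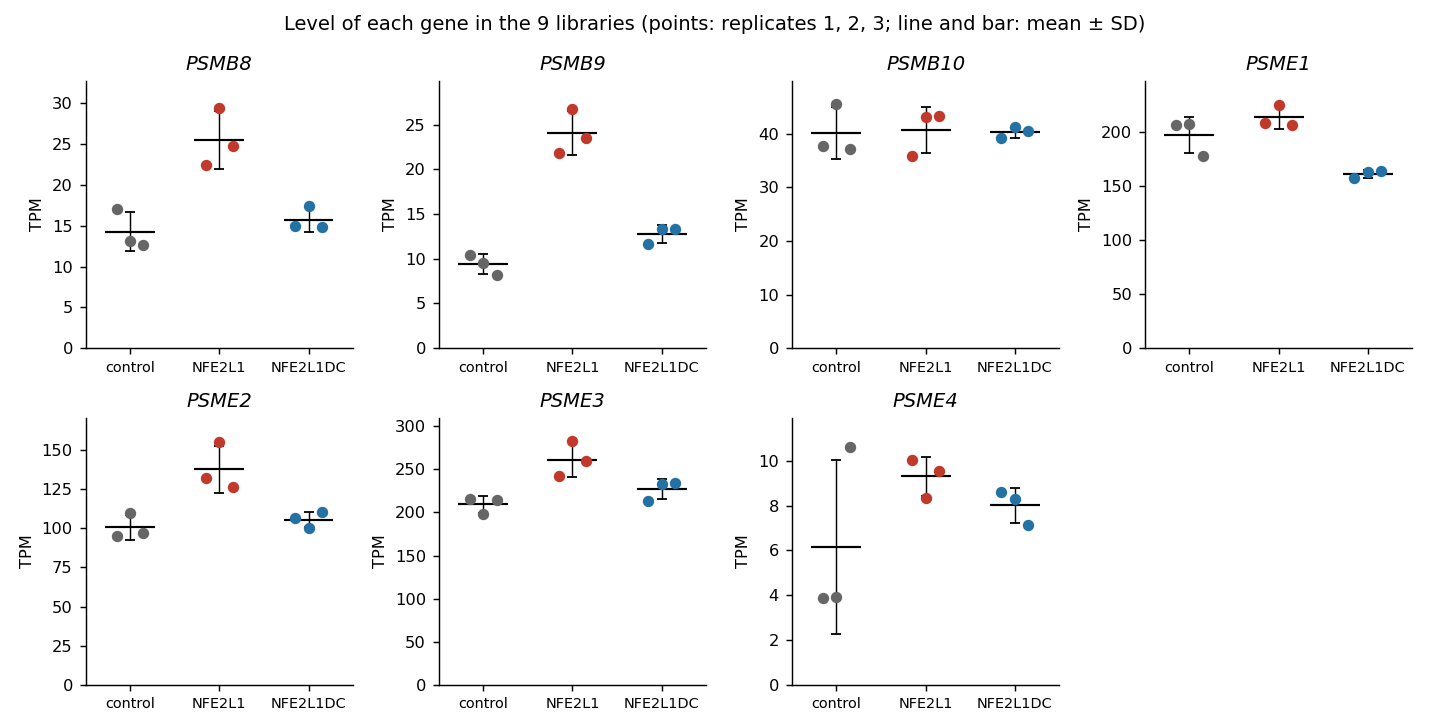
TPM (y axes, from 0) of the 7 members in control, NFE2L1 and NFE2L1DC libraries (x axes); points are libraries, lines are means and bars are SD over 3 libraries. The NFE2L1 points lie above all control points for PSMB8, PSMB9, PSME2 and PSME3, and control replicate 3 stands at 10.6 TPM of PSME4 beside 3.89 and 3.91 TPM in the other controls.

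Among the activators, PSME2 and PSME3 rose in the NFE2L1 line by less than PSMB9 and PSMB8. PSME2, the PA28-beta chain of the interferon-inducible ring, measured 95.2, 110 and 96.8 TPM in control, 132, 155 and 126 TPM in NFE2L1 and 106, 100 and 110 TPM in NFE2L1DC. All NFE2L1 libraries lay above all others, and the NFE2L1DC and control libraries overlapped. PSME2 rose 1.37-fold in the NFE2L1 line, a log2 fold change of 0.45 ± 0.10 (SE; 95% interval 0.23 to 0.67; limma adjusted p = 0.0219). The call was lost without control replicate 1, NFE2L1 replicate 1 or NFE2L1 replicate 2, with limma adjusted p-values of 0.0764, 0.058 and 0.0751, and under median-of-ratios scaling its value was 0.27 (0.247). In NFE2L1DC the log2 fold change was 0.07 ± 0.10 (limma adjusted p = 0.684).

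PSME1 encodes the PA28-alpha chain, the partner of PSME2 in the same ring, and its gene lies 4395 bases from PSME2 on chromosome 14. It measured 206, 207 and 178 TPM in control, 209, 225 and 207 TPM in NFE2L1 and 157, 163 and 164 TPM in NFE2L1DC. The NFE2L1DC libraries lay below all others, and the NFE2L1 and control libraries overlapped. Of all genes tested, 8.98% had NFE2L1DC libraries wholly below the control libraries, whatever their place beside NFE2L1. The log2 fold change was 0.12 ± 0.08 in NFE2L1 (limma adjusted p = 0.325) and -0.28 ± 0.08 in NFE2L1DC (95% interval -0.46 to -0.11; limma adjusted p = 0.0831). After correction for GC content and length the NFE2L1 value passed, at 0.27 (limma adjusted p = 0.0231), while median-of-ratios scaling gave -0.06. Without control replicate 3 the NFE2L1DC value was -0.35 with a limma adjusted p of 0.00962. The difference between the overexpressing lines was 0.40 ± 0.08, higher in NFE2L1 (limma adjusted p = 0.0651, and 0.0197 without control replicate 3).

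PSME3, the PA28-gamma chain, measured 215, 198 and 215 TPM in control, 242, 283 and 259 TPM in NFE2L1 and 214, 233 and 234 TPM in NFE2L1DC. The NFE2L1 libraries lay above all others, and those of NFE2L1DC overlapped the controls. The rise in the NFE2L1 line was 1.25-fold, a log2 fold change of 0.32 ± 0.08 (SE; 95% interval 0.14 to 0.49; limma adjusted p = 0.0353). It passed in 7 of 18 alternative settings, with 0.14 (limma adjusted p = 0.498) under median-of-ratios scaling. Leaving out control replicate 1 or 2, NFE2L1 replicate 2 or 3, or NFE2L1DC replicate 3 ended the call, with limma adjusted p-values of 0.0559 to 0.132. In NFE2L1DC the log2 fold change was 0.12 ± 0.08 (limma adjusted p = 0.412).

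PSME4 was the least abundant member. It measured 3.89, 3.91 and 10.6 TPM in control, 10.0, 8.31 and 9.55 TPM in NFE2L1 and 8.61, 8.29 and 7.13 TPM in NFE2L1DC. Control replicate 3 held the highest value of the 9 and the other 2 controls the lowest, so both overexpressing groups overlapped the controls. The log2 fold change was 0.65 ± 0.30 in NFE2L1 (limma adjusted p = 0.177) and 0.46 ± 0.30 in NFE2L1DC (limma adjusted p = 0.394). Without control replicate 3 these became 1.07 (limma adjusted p = 0.00108) and 0.88 (0.00465). Against control replicate 3 alone they were -0.18 and -0.37, so the direction for PSME4 was set by which controls were used. Its transcript had the lowest GC content of the members, 41.5%, against 46.9% to 60.1% for the others.

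**Figure D3:**
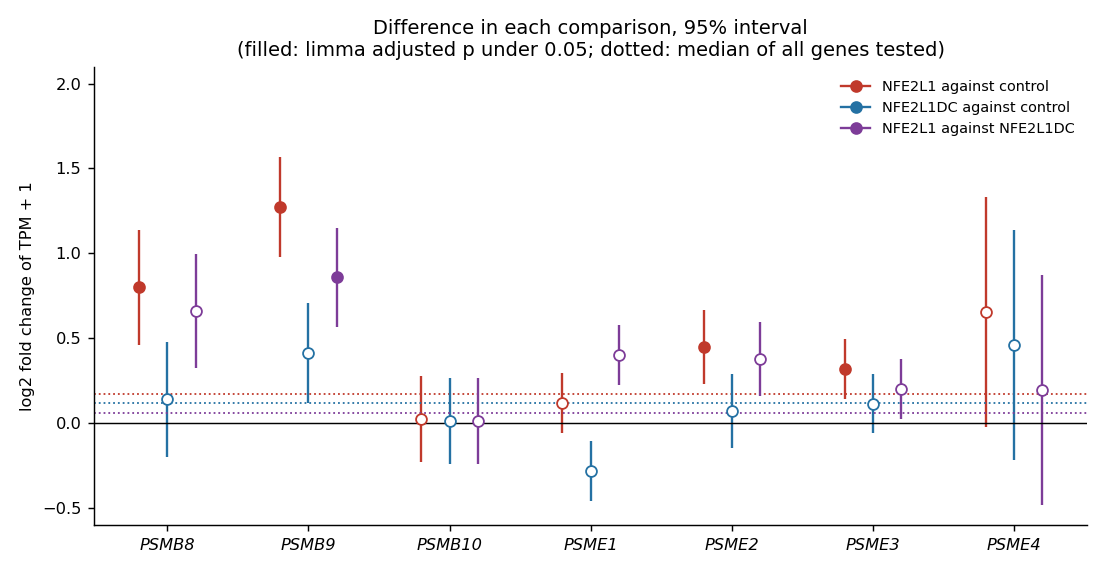
Log2 fold change of TPM + 1 (y axis) for each member (x axis) in the 3 comparisons, with 95% intervals; filled points have a limma adjusted p under 0.05 and dotted lines mark the median of all genes tested. Filled points are PSMB8, PSMB9, PSME2 and PSME3 in NFE2L1 against control and PSMB9 in NFE2L1 against NFE2L1DC.

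In the direct comparison of the overexpressing lines, the NFE2L1 libraries of 5 members (PSMB8, PSMB9, PSME1, PSME2 and PSME3) lay wholly above those of NFE2L1DC, against 12.4% of all genes tested. No member lay wholly below, against 5.55% of all genes. The median log2 difference of the 7 members was 0.38, beside 0.06 over all genes tested. For PSME2 the difference was 0.38 ± 0.10 (limma adjusted p = 0.207), for PSME3 0.20 ± 0.08 (0.535) and for PSME4 0.19 ± 0.30 (0.93). PSMB10 differed by 0.01 ± 0.11 (limma adjusted p = 0.992), with an interval of -0.24 to 0.26.

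By level, the control order was PSME3, PSME1, PSME2, PSMB10, PSMB8, PSMB9 and PSME4, with means of 209 ± 9.9, 197 ± 16.7, 101 ± 8.0, 40.2 ± 4.8, 14.3 ± 2.4, 9.38 ± 1.11 and 6.14 ± 3.88 TPM (SD, n = 3). PSME3 and PSME1 overlapped in control, as did PSMB9 and PSME4. The order of the means was the same in the NFE2L1 line, where PSMB8 at 25.5 ± 3.6 TPM and PSMB9 at 24.1 ± 2.5 TPM (SD, n = 3) overlapped. The order was also the same in the NFE2L1DC line, where PSME3 at 227 ± 11.5 TPM and PSME1 at 161 ± 3.8 TPM (SD, n = 3) did not overlap, as in NFE2L1.

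Each inducible subunit was then set against the constitutive subunit it replaces, as its share of the summed TPM of the pair. A share within a library does not depend on how that library was scaled. PSMB9 took 2.65%, 2.34% and 2.33% of the PSMB9 and PSMB6 sum in control, 5.64%, 6.32% and 5.75% in NFE2L1 and 3.06%, 3.14% and 3.28% in NFE2L1DC. The 3 groups were separate, in the same order as the PSMB9 levels. The mean log2 ratio of PSMB9 to PSMB6 was 1.33 higher in NFE2L1 than in control, 0.39 higher in NFE2L1DC than in control and 0.94 higher in NFE2L1 than in NFE2L1DC. Each difference had a 2-sided exact permutation p of 0.1, the smallest that 3 against 3 libraries allow, and 0.15 after Benjamini-Hochberg adjustment over the 12 ratio tests, so none could pass.

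PSMB8 took 6.56%, 4.91% and 6.47% of its pair with PSMB5 in control, 7.13%, 7.97% and 9.40% in NFE2L1 and 4.71%, 5.57% and 6.73% in NFE2L1DC. The NFE2L1 shares lay above both other groups, which overlapped each other. The log2 ratio differed by 0.49 between NFE2L1 and control (exact permutation p = 0.1, adjusted 0.15) and by -0.08 between NFE2L1DC and control (0.8, adjusted 0.873). PSMB10 held 7.39%, 8.72% and 7.84% of its pair with PSMB7 in control, 6.89%, 7.32% and 7.44% in NFE2L1 and 7.82%, 7.80% and 7.80% in NFE2L1DC. Its NFE2L1 shares lay below all NFE2L1DC shares and overlapped the controls, with a log2 ratio difference of -0.16 from control (exact permutation p = 0.2, adjusted 0.267).

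PSME2 held 31.6%, 34.7% and 35.3% of the PSME2 and PSME1 sum in control, 38.8%, 40.7% and 38.0% in NFE2L1 and 40.4%, 38.0% and 40.2% in NFE2L1DC. Both overexpressing groups lay above control and overlapped each other. The log2 ratio was 0.33 higher in NFE2L1 and 0.36 higher in NFE2L1DC than in control (exact permutation p = 0.1 for each, adjusted 0.15). The single values behind the shares differed between the lines: PSME2 was the higher in NFE2L1, and PSME1 was at its lowest in NFE2L1DC. Over PSME1 to PSME4 together, PSME1 made up 38.4% ± 2.4 of the TPM in control, 34.4% ± 0.8 in NFE2L1 and 32.2% ± 0.3 in NFE2L1DC (SD, n = 3). PSME3 made up 40.8% ± 2.4, 42.0% ± 1.1 and 45.2% ± 1.1 (SD, n = 3).

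**Figure D4:**
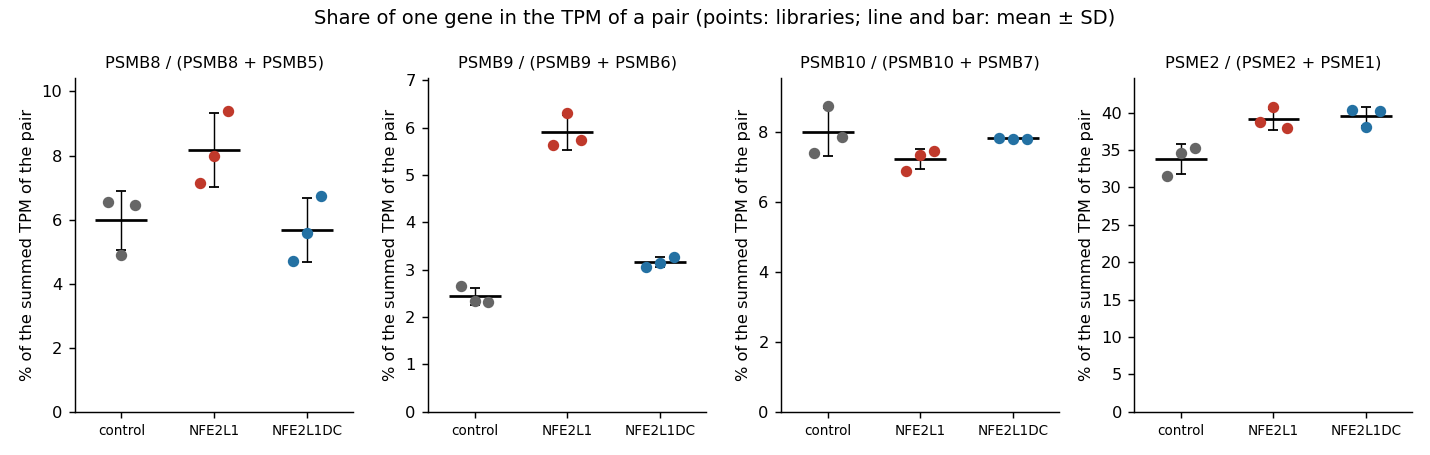
Share (y axes, % of the summed TPM, from 0) of each inducible subunit in its pair with the constitutive subunit, and of PSME2 in its pair with PSME1, by group (x axes); points are libraries, lines are means and bars are SD over 3 libraries. The PSMB9 share is 2.44%, 5.90% and 3.16% on average in control, NFE2L1 and NFE2L1DC, while the PSMB10 share stays between 6.89% and 8.72%.

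The constitutive subunits stayed the main form by transcript level in all groups. PSMB8, PSMB9 and PSMB10 summed to 63.8 ± 5.3 TPM in control, 90.4 ± 9.7 TPM in NFE2L1 and 68.9 ± 3.2 TPM in NFE2L1DC, against 1064 ± 89, 1196 ± 76 and 1136 ± 59 TPM for PSMB5, PSMB6 and PSMB7 (SD, n = 3). None of the 3 constitutive subunits passed the limma test in any comparison. Of their 9 limma tests 1, PSMB7 in NFE2L1 against control, had an unadjusted p under 0.05, as did 30.4% of all genes in that comparison. In NFE2L1 against control, PSMB5 had a log2 fold change of 0.35 (limma adjusted p = 0.231), PSMB7 one of 0.18 (0.119) and PSMB6 one of 0.03 (0.779).

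The rest of the proteasome was counted over lists that take its subunits by name, beside the 7.83% of all genes that rose in NFE2L1 and the 2.06% in NFE2L1DC. Of 11 other core subunits, 3 rose and none fell in the NFE2L1 line, with a median log2 fold change of 0.27; PSMA3, an alpha-ring subunit, led at 0.74 and PSMA5 followed at 0.37. Of 19 regulatory-cap subunits, 7 rose and none fell, with a median of 0.37, PSMD1 leading at 1.07 and PSMD12 at 1.04. PSMB9 at 1.27 was above every gene of these lists. PSMB8 at 0.80 lay below PSMD1, PSMD12 and some further regulatory-cap subunits, and above all 11 other core subunits. In NFE2L1DC against control 1 other core subunit (PSMA3, 0.70) and 2 regulatory-cap subunits (PSMD11, 0.39, and ADRM1, 0.33) rose and none fell.

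POMP, the chaperone that matures the core and favours assembly of immunoproteasomes, measured 48.1, 59.3 and 68.7 TPM in control, 99.6, 101 and 92.4 TPM in NFE2L1 and 89.7, 80.2 and 84.0 TPM in NFE2L1DC. Both overexpressing groups lay above all controls, a separation seen in 22.6% of all genes tested for NFE2L1 and 13.7% for NFE2L1DC. POMP rose by a log2 fold change of 0.74 ± 0.12 in NFE2L1 (limma adjusted p = 0.00708) and 0.53 ± 0.12 in NFE2L1DC (0.0478). It was the 1 of 5 assembly factors to change in either, beside 7.83% and 2.06% of all genes that rose. The POMP call passed in 17 of 18 alternatives in NFE2L1, and in 5 of 18 in NFE2L1DC (limma adjusted p of 0.00576 to 0.278). In NFE2L1DC it was kept, of the fits that leave out 1 library, only without control replicate 3. PSMF1, which encodes an inhibitor of the core, had a log2 fold change of 0.67 ± 0.20 in NFE2L1 (limma adjusted p = 0.0621). The tissue-restricted core subunits PSMB11 of the thymus and PSMA8 of the testis were not tested, with PSMA8 listed at 0 in all 9 libraries.

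Genes that control the inducible subunits were taken as a list of 21 interferon and NF-kB signalling genes, of which 17 were tested. In NFE2L1 against control 6 rose and none fell, beside 7.83% of all genes tested that rose and 2.57% that fell. The median log2 fold change of the regulators was 0.51. IRF7 and IRF9, interferon-responsive transcription factors, rose by 2.36 and 2.14. NLRC5, the activator of class I HLA genes and of PSMB9, measured 11.3, 15.5 and 14.4 TPM in control and 20.3, 18.7 and 20.5 TPM in NFE2L1. It rose by 0.51 ± 0.13 (limma adjusted p = 0.0387), with the 2 groups apart, and the call held in 5 of 18 alternatives (0.0105 to 0.176). Leaving out any 1 library other than control replicate 3 ended it. IRF1, a factor that binds promoters of inducible subunits, had a log2 fold change of 0.76 ± 0.26 in NFE2L1, which did not pass (limma adjusted p = 0.087). None of these regulators passed in NFE2L1DC against control, where 4 of 17 had an unadjusted p under 0.05, near the 21.7% of all genes, and their median was 0.17 beside 0.12 over all genes. In NFE2L1 against NFE2L1DC 3 regulators were higher, among them IRF7 by 2.54 and IRF9 by 2.33, and none was lower. Of all genes tested, 0.715% were higher and 0.0779% lower in that comparison. Transcripts of 9 interferons were near 0: none was tested, and the highest value in any library was 0.12 TPM, for IFNL2.

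The class I antigen pathway, which uses the peptides the immunoproteasome makes, was a list of 15 genes with 13 tested. In NFE2L1 against control 7 rose and none fell, against 7.83% and 2.57% of all genes tested. On the log2 scale the 13 genes had a median change of 0.80, beside 0.17 over all genes tested. HLA-B rose by 1.41 and HLA-F by 1.36, while their folds of mean TPM were 2.65 and 5.16. The scale of log2(TPM + 1) understates changes of genes at low levels. TAP1, the neighbour of PSMB9, measured 23.0, 22.8 and 19.1 TPM in control, 38.2, 37.8 and 38.9 TPM in NFE2L1 and 24.1, 23.1 and 23.2 TPM in NFE2L1DC.

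The NFE2L1 libraries of TAP1 stood above all others. TAP1 rose by 0.80 ± 0.10 in NFE2L1 (limma adjusted p = 0.00145), with 0.12 ± 0.10 in NFE2L1DC (0.512). TAP2, the other half-transporter, rose by 1.11 ± 0.25 in NFE2L1 (limma adjusted p = 0.0263), a call that held in 11 of 18 alternatives (0.00549 to 0.225) and was lost without control replicate 1 or 2 or any NFE2L1 library. TAPBP, which bridges the transporter and class I HLA molecules, measured 56.9, 61.6 and 60.0 TPM in control and 60.9, 57.4 and 59.8 TPM in NFE2L1, and the groups overlapped. None of the list passed in NFE2L1DC against control by limma, where 4 of 13 had an unadjusted p under 0.05, beside 21.7% of all genes. HLA-B, HLA-C and TAP1 were higher in NFE2L1 than in NFE2L1DC, by 0.89, 0.74 and 0.68. Of all genes tested, 0.715% were higher and 0.0779% lower in that comparison. The TAP1 call held in 10 of 17 alternatives (limma adjusted p of 0.00144 to 0.175) and was lost without any NFE2L1 library or NFE2L1DC replicate 2 or 3.

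**Figure D5:**
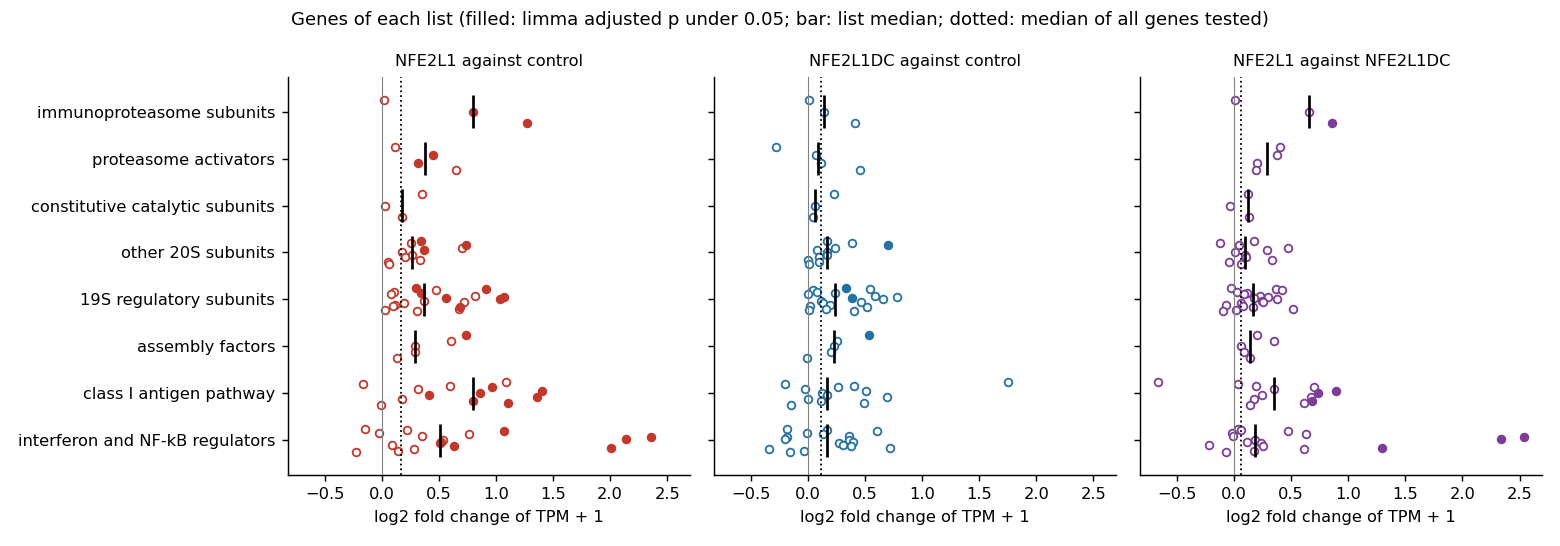
Log2 fold change of TPM + 1 (x axes) of the tested genes of each list (y axis) in the 3 comparisons; filled points have a limma adjusted p under 0.05, black bars are list medians and the dotted line is the median of all genes tested. In NFE2L1 against control the class I antigen pathway has a median of 0.80 and the regulators one of 0.51, beside 0.17 over all genes.

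The exact letters shared by the members' starts were also looked up in the other genes that hold them. Apart from the members and TAP1, 29 genes had GAAAGCGAAA in a RefSeq window, of which 17 were tested. In NFE2L1 against control 2 of the 17 rose, GRWD1 by 0.37 and TAP2 by 1.11, and none fell, a share near the 7.83% of all genes that rose. The median log2 fold change of the 17 was 0.37, beside 0.17 over all genes tested. The 17 include PSMB8-AS1 at 0.42 and RNF31 at 0.43, whose gene models overlap those of PSMB8 and PSME2. Their windows may hold the same sites as those members, so the 17 are not all separate from the members.

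The genes whose levels were most like each member over the 9 libraries were taken by Pearson's r of log2(TPM + 1) among 9303 genes, as a description, since the libraries share 3 groups. PSMB9 was most like HLA-B (r = 0.998), RARRES3 (0.994) and ISG15 (0.988). PSMB8 was most like IL32 (0.983), PSMB9 (0.956) and TRAIP (0.956). PSME2 was most like STT3A (0.96), USP18 (0.95) and EVA1C (0.945), and PSME3 was close to ASCC2 (0.956) and CDC25B (0.939). PSMB10 had no gene above 0.896, which it reached with PSMC5, a regulatory-cap subunit.

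PSME1 was most like SLC2A1 (0.961), LRPAP1 (0.956) and NAIF1 (0.94), and PSME4 like FAM20B (0.995), MSL2 (0.991) and LIMA1 (0.99). Between members, r was 0.956 for PSMB8 with PSMB9, 0.921 for PSMB9 with PSME3 and 0.90 for PSMB9 with PSME2. PSMB10 had r of -0.32 to 0.29 with the other members. PSME1 and PSME2, the partners of 1 ring, had r of 0.608 over the 9 libraries.

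The GENCODE 29 gene models on GRCh38 place PSMB8 (ENSG00000204264) at chr6:32840717-32844703 on the minus strand and PSMB9 (ENSG00000240065) at chr6:32844136-32859585 on the plus strand, and these models overlap each other. The PSMB9 model also overlaps TAP1 and the antisense RNA PSMB8-AS1. The labels and processing notes do not say whether the libraries were stranded, so reads from the overlapping parts of these genes cannot be told apart. PSMB8-AS1 averaged 1.65, 2.56 and 1.33 TPM in control, NFE2L1 and NFE2L1DC, with a log2 fold change of 0.42 in NFE2L1 (limma adjusted p = 0.227). PSME2 (ENSG00000100911) at chr14:24143362-24147570 on the minus strand overlaps RNF31, which averaged 46.8, 63.1 and 54.8 TPM and had a log2 fold change of 0.43 in NFE2L1 (limma adjusted p = 0.119). PSME2 also has 2 named pseudogenes in the table, with a highest value of 1.77 TPM.

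PSMB10 (ENSG00000205220) lies at chr16:67934502-67937087 on the minus strand and PSME1 (ENSG00000092010) at chr14:24136158-24138967 on the plus strand. PSME3 (ENSG00000131467) lies at chr17:42824385-42843758 on the plus strand and PSME4 (ENSG00000068878) at chr2:53864067-53970840 on the minus strand. PSMB10 overlaps AC040162.1, a protein-coding model on the same strand, which averaged 5.05, 4.61 and 6.21 TPM in control, NFE2L1 and NFE2L1DC. AC040162.1 had a log2 fold change of -0.12 in NFE2L1 (limma adjusted p = 0.687). PSME1 overlaps EMC9, which had a log2 fold change of -0.04 in NFE2L1 (limma adjusted p = 0.807). PSME3 overlaps BECN1, with 0.11 (0.627), and PSME4 overlaps ACYP2, with 0.20 (0.531).

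Leukocytes express PSMB8, PSMB9 and PSMB10 without stimulation, so their markers were read beside the members. Of 10 leukocyte markers, 6 were listed at 0 in all 9 libraries, and the highest value of any was 0.65 TPM. Their summed level was 0.248 to 0.559 TPM in control, 0.398 to 0.655 TPM in NFE2L1 and 0.325 to 0.65 TPM in NFE2L1DC. Of 7 fibroblast markers, 4 reached 1 TPM, with sums of 127 to 148 TPM in control, 92.1 to 106 TPM in NFE2L1 and 86.0 to 102 TPM in NFE2L1DC. COL1A2 was listed at 0 throughout, and PDGFRB and COL3A1 fell in NFE2L1 while COL3A1 fell in NFE2L1DC. Of all genes tested, 2.57% fell in NFE2L1 and 1.54% in NFE2L1DC. Of 4 endothelial markers, none reached 1 TPM. The part of these markers in the members' values was not tested. In bulk RNA, fewer cells of a type and less RNA per cell cannot be told apart.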

How the data were processed

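RNA-seq of 9 libraries, 3 per group, was analysed from 1 table of TPM that the authors deposited. Per the submitters' processing notes, CASAVA and the GRCh38 build were used; no label or note names the aligner, quantifier, annotation, strandedness or filters. The table holds no counts, so depth is unknown and no counting interval can be given, and a count test planned for counts was replaced by limma-trend (limma 3.58.1, R 4.3.3) on log2(TPM + 1). All 3 groups entered 1 fit without a replicate block. A fold change on this scale understates changes of low genes, and TPM moves when a few abundant genes change. Both overexpressing lines were compared with the same controls. Ratios were tested by exact permutation in scipy 1.17.1. The fit was tested on simulated data. Gene identifiers were matched to GENCODE 29 for 57836 genes, and promoter windows came from RefSeq on GRCh38.p14.

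The members and lists were chosen with earlier results of these data known. All members are named; of the lists, PSMB5, PSMB6, PSMB7, POMP, PSMF1, IRF1, NLRC5, TAP1, TAP2 and TAPBP and up to 2 changed genes with the highest and the lowest log2 fold change per list and comparison. Some results that this rule covers are not reported here. Alternatives were a pseudocount of 0.1, other filters, median-of-ratios scaling, 2 groups only, array weights, a replicate block, correction for GC content and length, and leaving out each library; control replicate 3 as the only control was added after seeing the data.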

Additional observations from a re-analysis of the deposited data

How the results depend on the processing

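Of the members in NFE2L1 against control, PSMB9 passed in 18 of 18 alternatives (log2 fold changes of 1.10 to 1.44), PSMB8 in 15 (0.63 to 0.96), PSME2 in 12 (0.27 to 0.51) and PSME3 in 7 (0.14 to 0.37). PSMB9 in NFE2L1 against NFE2L1DC passed in 9 of 17, and PSME4 passed in 2 of 18 in each comparison with control, as higher. The members past the threshold in NFE2L1 against control, 4 in the fit described, numbered 1 under median-of-ratios scaling, 2 with the 2 groups only and 2 against control replicate 3 alone. Of the list genes named in that comparison, IRF7, IRF9, HLA-B, HLA-F and TAP1 passed in 18 of 18 alternatives, COL3A1 in 16, PSMA3 in 13, PSMA5 and PSMD1 in 9, and PSMD12 and PDGFRB in 6. In NFE2L1DC against control COL3A1 passed in 16, PSMA3 in 6, PSMD11 in 5 and ADRM1 in 4 of 18. Between the overexpressing lines IRF7, IRF9 and HLA-C passed in 17 of 17 and HLA-B in 15. In NFE2L1DC against control the count rose from 0 to 3 with array weights (PSMB9, PSME1 and PSME4). In NFE2L1 against NFE2L1DC it went from 1 to 0 under median-of-ratios scaling and the replicate block, to 2 with the 2 groups only or GC correction, and to 3 with array weights. Depth is unknown, and 3 libraries a group limit precision; the causes of these shifts were not tested.

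Over all genes, 1468 changed in NFE2L1 against control. The count was 947 without the filter on low values, 848 with the 2 groups only, 5962 with array weights, 872 with the replicate block and 307 against control replicate 3 alone. In NFE2L1DC against control 509 changed, with 293 under median-of-ratios scaling, 101 with the 2 groups only, 3322 with array weights, 198 with the block and 68 against control replicate 3 alone. In NFE2L1 against NFE2L1DC 112 changed, with 73 under median-of-ratios scaling, 201 with array weights and 58 with the block. Median-of-ratios scaling moved the median of all genes from 0.17 to 0.02 in NFE2L1 and from 0.12 to 0.02 in NFE2L1DC against control. The calls were then 557 higher and 464 lower in NFE2L1, from 1105 and 363, and 119 higher and 174 lower in NFE2L1DC, from 291 and 218. With GC correction they were 1441 and 265, and 470 and 163.

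Some log2 fold changes turned sign, none of them past the threshold before or after the turn. For NFE2L1 against control, median-of-ratios scaling gave -0.15 for PSMB10, -0.060 for PSME1, -0.14 for PSMB6 and -0.0011 for PSMB7, and array weights gave -0.054 for PSMB10 and -0.022 for PSMB6. PSME4 went from 0.65 to -0.18 against control replicate 3 alone, and TAPBP 0.11 with GC correction. In NFE2L1DC against control, median-of-ratios scaling gave -0.10 for PSMB10, -0.041 for PSME2, -0.046 for PSMB6 and -0.068 for PSMB7. Array weights gave -0.069 for PSMB10 and -0.12 for IRF1, and PSME4 went from 0.46 to -0.37 against control replicate 3 alone. In NFE2L1 against NFE2L1DC, PSMB10 was -0.055 under median-of-ratios scaling.

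Leaving out each library in turn gave 510 to 5055 changed genes in NFE2L1 against control, without control replicate 2 and control replicate 3 respectively, 115 to 3444 in NFE2L1DC against control, without the same libraries, and 49 to 147 in NFE2L1 against NFE2L1DC. Members changed numbered 1 (without NFE2L1 replicate 2) to 5 (without control replicate 3), 0 to 2 and 0 to 2. For NFE2L1 against control, PSMB10 ranged from -0.030 to 0.12, PSMB6 from -0.026 to 0.077 and TAPBP from -0.035 to 0.022. In NFE2L1DC against control, PSMB10 ranged from -0.040 to 0.11 and IRF1 from -0.063 to 0.36. In NFE2L1 against NFE2L1DC, PSMB10 ranged from -0.035 to 0.098, PSMB5 from -0.056 to 0.25 and PSMB6 from -0.074 to 0.0048. Among the log2 ratios, PSMB8 to PSMB5 ranged from -0.23 to 0.050 and PSMB10 to PSMB7 from -0.091 to 0.039 in NFE2L1DC against control, and PSME2 to PSME1 from -0.070 to 0.013 in NFE2L1 against NFE2L1DC.

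Deviations from the group means correlated at -0.19 to 0.11 between same-numbered libraries and at -0.18 to 0.28 between differently numbered ones. These values showed no sign of pairing by replicate number, but with 3 libraries a group they cannot exclude it. With the replicate block, 872, 198 and 58 genes changed in the 3 comparisons.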
